A study of Rattus norvegicus with 4 samples.

Results

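The genes described here are 9 that encode filamins and other actin-binding proteins of the cytoskeleton: *Flna*, *Flnc*, *Actn1*, *Actn4*, *Vcl*, *Tln1*, *Zyx*, *Acta2* and *Tagln*. They were chosen by symbol, with the comparison of *Thop1*-KO and WT cells already known, and are 9 of the 34773 genes in the deposited table. Their fold changes are therefore a description, and the counts of calls given for them below support nothing, since the genes were picked on the same comparison. All 9 passed the filter on low counts, as did 15028 genes in all. The study asked which genes regulate the exit of rat embryonic stem cells (ESCs) from pluripotency, and the RNA-seq compared cells without *Thop1*, which encodes a metallopeptidase, with their parent line. WT is 1 library of the parent line, DA-5-3GFP, in which the rat ESCs named DA-5-3 carry GFP at *Rex1*, a gene of the naive state. *Thop1*-KO is 1 library from each of 3 subclones (#1, #2 and #3) that were made from that line with Cas9. All of these groups carry the reporter, and the methods have the cells grown over feeders, with 2i/LIF as the medium that holds them in that state. The species of the feeder cells is not given in the sources used here. DA-5-3 served as a diploid reference line elsewhere in the work, whereas the text deposited with the series calls the sequenced cells haploid. Each subclone is 1 clone with 1 library, so the p-values measure the spread between clones and not between cultures of a clone.

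The counts on genes summed to between 15405499 and 17936544 per library. The targeted gene *Thop1* stood at 370 CPM (counts scaled to library size by edgeR's TMM method) in WT and at 110, 92.5 and 149 in #1, #2 and #3. *Pou5f1*, a defining transcription factor of ESCs, stood at 4794 CPM in WT and at 4842, 3889 and 4776 in the subclones. Of the 6 naive ESC markers tested, 2 were called higher (*Esrrb* and *Tfcp2l1*), where 8.62% of all genes tested were. *Rex1* (*Zfp42*), also listed as a marker, was not found by symbol among the genes deposited. WT has no replicate, so the error of every fold change rests on how the subclones differ, and a difference between genotypes cannot be told apart from a difference between that WT culture and the others. In bulk RNA, fewer cells of a type and less RNA per cell cannot be told apart.

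Filamins are long rod-shaped proteins that cross-link actin filaments and join them to membrane receptors. Alpha-actinins bundle filaments, while talin and vinculin link them to integrins at focal adhesions, where zyxin is recruited under tension. *Acta2* encodes the smooth muscle alpha-actin and *Tagln* encodes transgelin, which binds actin filaments in contractile cells. Many of these genes are known targets of serum response factor (SRF), which binds DNA at CArG boxes and is helped by MRTF coactivators that sense the pool of free actin.

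By TMM-scaled CPM, *Flna*, *Flnc*, both alpha-actinins, vinculin and talin stood above WT in every *Thop1*-KO subclone, and zyxin and smooth muscle actin stood below it. The WT library lay below all 3 subclones for 6 of the 9 genes (*Flna*, *Flnc*, *Actn1*, *Actn4*, *Vcl* and *Tln1*), above all 3 for *Zyx* and *Acta2*, and inside their range for *Tagln*. Over all genes tested, WT lay below all 3 subclones for 38.1% and above all 3 for 37.6%. The fitted log2 fold changes (*Thop1*-KO over WT) of the 9 genes ranged from -0.95 to 1.73, with a median of 0.49, against a median of 0.06 over all genes tested. By edgeR's quasi-likelihood test with an adjusted p-value under 0.05, 1 of the 9 genes was called higher (*Actn4*) and 0 lower, where 8.62% of all genes tested were called higher and 5.17% lower. At an unadjusted p under 0.05, 4 of the 9 passed, as did 5110 of the 15028 genes tested. DESeq2 called 3 higher (*Flna*, *Flnc* and *Actn4*) and 0 lower, against 14.1% higher and 7.2% lower of the 14115 genes to which it gave an adjusted p. The count also depended on single libraries: edgeR called 3 without #1 (*Flna*, *Flnc* and *Actn4*), 5 without #2 (these and *Tln1* higher, *Acta2* lower) and 0 without #3. The counts over all genes moved alike: 1312 higher and 710 lower without #1, 3096 and 2476 without #2, and 354 and 103 without #3.

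**Figure D1:**
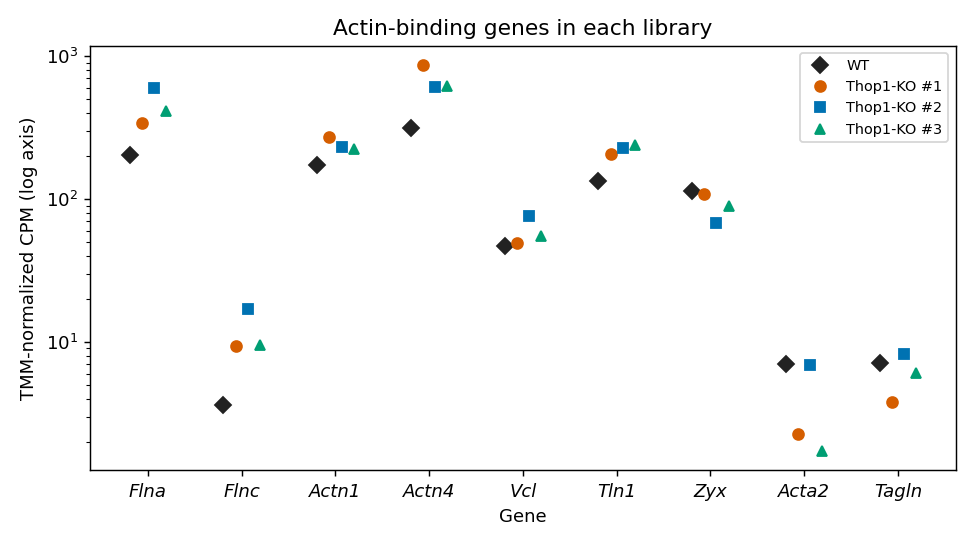
Level of each of the 9 genes in each library, as TMM-normalized CPM on a log axis; each point is 1 library, with WT as a diamond and the *Thop1*-KO subclones #1, #2 and #3 as a circle, a square and a triangle. WT is the lowest point for 6 genes, the highest for *Zyx* and *Acta2*, and lies between the subclones for *Tagln*.

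Filamin A, which cross-links actin in most cell types, is encoded by *Flna* (ENSRNOG00000054890), on the plus strand of chromosome X from 156463953 to 156487245 in the deposited annotation, whose build is not given in the sources used here. *Flna* stood at 204 CPM in WT (3031 counts) and at 339, 599 and 411 CPM in #1, #2 and #3 (5680, 10581 and 7393 counts). All 3 subclones lay above WT, #2 the farthest. The log2 fold change of *Flna* was 1.14 (standard error 0.36). *Flnc* (ENSRNOG00000007281, chromosome 4, 56711049 to 56738791, plus strand), the filamin of striated muscle, was low: 3.63 CPM in WT (54 counts) against 9.42, 17.1 and 9.57 CPM in the subclones (158, 303 and 172 counts). Its order among the libraries was alike, with #2 on top, and its log2 fold change was 1.73 (standard error 0.53), the largest of the 9.

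Promoter sequences were read from RefSeq (GRCr8, 250 bases before the start of transcription to 50 after it). RefSeq entries were matched for 7 of the 9 genes; *Actn4* and *Tagln* were not matched. *Flna* and *Flnc* are shown because both stood lowest in WT and highest in #2. They shared this order but not the steps: *Flnc* was nearly equal in #1 and #3 (9.42 and 9.57 CPM), and *Flna* was not (339 and 411). The *Flna* window is chrX:157182294-157182593 on the minus strand and that of *Flnc* is chr4:58999297-58999596 on the plus strand. For *Flna* the strand differs from the plus strand of the deposited annotation. Whether its window is the start of the gene that was counted was not tested. Capitals mark the motif CATTCC (on either strand), the core of the MCAT element to which TEAD factors bind, and, in *Flna*, a run that matches the CArG box with 1 mismatch in 2 overlapping places.
Flna: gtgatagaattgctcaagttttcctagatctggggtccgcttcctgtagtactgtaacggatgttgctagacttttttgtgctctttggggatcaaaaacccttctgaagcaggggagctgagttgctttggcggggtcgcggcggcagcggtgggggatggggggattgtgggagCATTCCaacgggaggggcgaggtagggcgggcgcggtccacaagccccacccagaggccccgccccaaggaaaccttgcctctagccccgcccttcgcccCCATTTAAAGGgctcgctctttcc
Flnc: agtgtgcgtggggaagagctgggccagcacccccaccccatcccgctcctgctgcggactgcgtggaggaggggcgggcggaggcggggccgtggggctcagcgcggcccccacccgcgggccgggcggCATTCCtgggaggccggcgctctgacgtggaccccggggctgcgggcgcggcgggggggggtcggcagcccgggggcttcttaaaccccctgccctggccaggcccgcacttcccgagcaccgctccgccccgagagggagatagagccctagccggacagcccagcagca
The CATTCC motif began at -74 in *Flna* and at -121 in *Flnc*, counted from the start of transcription, and the CArG-like run of *Flna* began 26 bases after it. Over both strands, CATTCC occurs in 14.2% of the 33469 rat promoters of the same length, and a CArG box with up to 1 mismatch in 21.3%. The exact CArG box occurs in 1.64% of them and in 0 of the 7 matched genes. With up to 1 mismatch, 3 of the 7 held it (*Flna*, *Zyx* and *Acta2*), and 5 of the 7 held CATTCC (*Flna*, *Flnc*, *Vcl*, *Acta2* and 1 of the 2 start sites of *Zyx*). CATTCC was chosen after these promoters had been read, so its count supports nothing, and a match is not a bound site.

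Of the alpha-actinins, *Actn4* stood farther above WT. *Actn4* (ENSRNOG00000020433, chromosome 1, 87078020 to 87147333, minus strand) encodes the non-muscle alpha-actinin-4 and was the most abundant of the 9 genes. It stood at 312 CPM in WT and at 865, 612 and 618 in #1, #2 and #3. Here #1 was the highest, and #2 and #3 were nearly equal. The log2 fold change of *Actn4* was 1.16 (standard error 0.29), and its call held in 8 of 13 alternatives. *Actn1* (ENSRNOG00000056756, chromosome 6, 103375799 to 103470555, minus strand), the other non-muscle form, stood at 172 CPM in WT and at 271, 232 and 223 in the subclones, and its log2 fold change was 0.49 ± 0.24 (standard error). It too was highest in #1. *Actn4* held 64.5% of the reads on both genes in WT (exact 95% interval 63.4 to 65.6) and 76.2%, 72.5% and 73.5% in the subclones. The interval covers counting error only, since PCR copies are not independent molecules. The muscle forms *Actn2* and *Actn3* had at most 6 counts in any library and were not tested. *Capn12* overlaps *Actn4* on the opposite strand but held only 1 to 19 counts.

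The genes of 3 focal adhesion proteins, talin, vinculin and zyxin, were not called. *Tln1* (ENSRNOG00000016630, chromosome 5, 59033636 to 59063592, minus strand), whose product activates integrins, stood at 133 CPM in WT and at 208, 226 and 240 in #1, #2 and #3. The subclones lay close to each other, and the log2 fold change was 0.75 (standard error 0.24). *Creb3*, with 419 to 784 counts, overlaps *Tln1* on the opposite strand, and whether reads were assigned by strand is not given in the sources used here. Its relative *Tln2* stood at 4.78 CPM in WT and at 10.1, 15.1 and 13.4 in the subclones, a difference that did not pass the test (log2 fold change 1.43, adjusted p = 0.0666, edgeR). *Vcl* (ENSRNOG00000010765, chromosome 15, 3455211 to 3544702, minus strand), encoding vinculin, which binds talin under load, stood at 46.7 CPM in WT and at 49.4, 75.9 and 54.9 in the subclones. Its value in #1 was only slightly above WT, and its log2 fold change was 0.36 (standard error 0.33). *Zyx* (ENSRNOG00000017354, chromosome 4, 71740532 to 71749386, plus strand) stood at 114 CPM in WT and at 108, 68.0 and 89.2 in the subclones. It was close to WT in #1 and lowest in #2, and its log2 fold change was -0.37 ± 0.31 (standard error). *Epha1*, with 117 to 234 counts, overlaps *Zyx* on the opposite strand.

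The smooth muscle genes were low and varied most among the subclones. *Acta2* (ENSRNOG00000058039, chromosome 1, 252537615 to 252550394, minus strand) had 104 counts in WT and 38, 121 and 31 in #1, #2 and #3, or 7.0, 2.27, 6.84 and 1.73 CPM. WT and #2 were nearly equal, while #1 and #3 were lower. The log2 fold change of *Acta2* was -0.95 (standard error 0.75), and its highest subclone stood 3.97 times above its lowest. The standard deviation of its log2 CPM over the subclones was larger than that of 92.4% of the genes tested. *Tagln* (ENSRNOG00000017628, chromosome 8, 50222896 to 50231357, minus strand) stood at 7.13 CPM in WT and at 3.82, 8.20 and 6.07 in the subclones, and its log2 fold change was -0.24 ± 0.50 (standard error). *Sidt2*, with 1089 to 1206 counts, overlaps *Tagln* on the same strand, so the 64 to 145 counts of *Tagln* are uncertain. Of the smooth muscle markers, *Myocd*, which encodes the coactivator that defines the lineage, had 0 counts in every library, *Lmod1* at most 2 and *Cnn1* at most 6. The summed level of the 7 markers was 27.3 CPM in WT and 35.1 to 39.1 in the subclones, mostly *Smtn*, and *Des*, the intermediate filament of muscle, was the 1 of 4 tested that was called (higher), at 0.740 CPM in WT and at 8.41, 7.01 and 9.24 in the subclones.

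The actin genes themselves moved apart. *Actg1*, cytoplasmic gamma-actin, was at 611 CPM in WT and at 1307, 1482 and 1454 in the subclones (log2 fold change 1.21, standard error 0.21, adjusted p = 0.0195, edgeR) and was called in 11 of 13 alternatives. A locus on chromosome 3 that the annotation names as like gamma-actin (LOC100361457) was at 133 CPM in WT and at 643, 779 and 743 in the subclones, and how reads that fit both genes were assigned is not given in the sources used here, so both values are uncertain. *Actb*, cytoplasmic beta-actin, stood at 1818 CPM in WT and at 1825, 2656 and 2085 in the subclones, and its log2 fold change, 0.27 ± 0.26 (standard error), did not pass the test. *Actg1* held 25.1% of the reads on both genes in WT and 41.7%, 35.8% and 41.1% in the subclones. *Acta1*, the skeletal muscle actin, had 67 counts in WT and 0, 1 and 4 in the subclones, and was called lower in the main test and in 12 of the 12 alternatives that tested it. The promoters of *Acta2* (chr1:241172454-241172753, minus strand) and *Actg1* (chr10:106120902-106121201, minus strand) are shown for their CArG boxes in capitals, an exact one in *Actg1* at -90 and those with 1 mismatch in *Acta2* at -134 and -84; the first capitals of *Acta2*, at -196, are CATTCC on the other strand.
Acta2: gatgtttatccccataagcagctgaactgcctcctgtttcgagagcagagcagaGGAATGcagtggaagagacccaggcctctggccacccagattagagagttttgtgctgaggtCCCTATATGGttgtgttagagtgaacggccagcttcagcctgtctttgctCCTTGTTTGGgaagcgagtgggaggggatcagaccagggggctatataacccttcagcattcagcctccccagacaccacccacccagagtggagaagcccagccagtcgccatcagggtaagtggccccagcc
Actg1: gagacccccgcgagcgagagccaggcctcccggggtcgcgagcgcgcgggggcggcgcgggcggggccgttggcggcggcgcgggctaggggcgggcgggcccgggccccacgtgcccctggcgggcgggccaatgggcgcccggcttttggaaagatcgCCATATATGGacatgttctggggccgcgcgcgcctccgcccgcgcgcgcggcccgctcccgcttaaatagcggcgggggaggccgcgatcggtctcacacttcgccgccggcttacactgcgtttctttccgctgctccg
By TMM-scaled CPM, *Actg1* was higher than WT in every subclone, and *Acta2* was lower than WT in every subclone, narrowly so in #2. For *Acta2* in #2 the side depended on the scaling. It was also below WT in the deposited FPKM (4.86 against 4.96). By library total alone it was above WT (121 counts of 16525074, against 104 of 15405499).

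**Figure D2:**
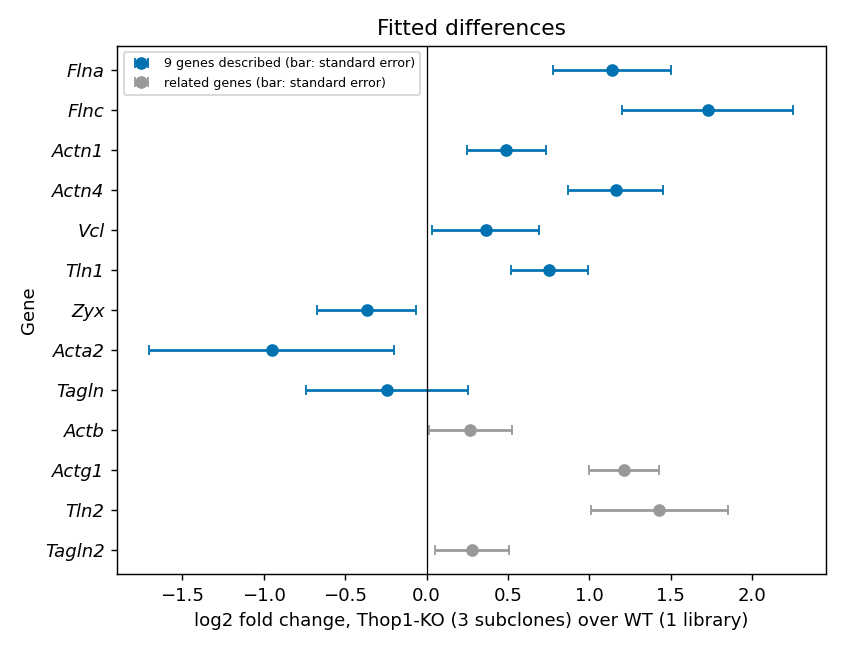
Fitted log2 fold change of *Thop1*-KO (3 subclones) over WT (1 library) on the horizontal axis, with bars of 1 standard error, for the 9 genes (blue) and the related genes *Actb*, *Actg1*, *Tln2* and *Tagln2* (grey). *Flna*, *Flnc*, both alpha-actinins, *Vcl* and *Tln1* lie above 0, and *Zyx*, *Acta2* and *Tagln* below it.

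Levels of different genes were compared per length. The deposited FPKM (fragments scaled to gene length and library size) in WT ran from 77.3 for *Actn4* through 44.4 for *Actn1*, 44.0 for *Zyx*, 23.9 for *Flna*, 15.2 for *Tln1*, 8.39 for *Vcl*, 5.61 for *Tagln* and 4.96 for *Acta2* to 0.394 for *Flnc*. In the subclones the mean FPKM was 173 ± 37.0 (SD, n = 3) for *Actn4*, 62.3 ± 7.11 for *Actn1*, 52.6 ± 15.7 for *Flna*, 34.1 ± 7.88 for *Zyx*, 25.6 ± 1.60 for *Tln1*, 10.8 ± 2.51 for *Vcl*, 4.73 ± 1.72 for *Tagln*, 2.56 ± 2.0 for *Acta2* and 1.30 ± 0.48 for *Flnc*. *Flna* thus passed *Zyx* in this order. Among neighbours in the subclones, the ranges of *Actn1* and *Flna* overlapped, as did those of *Flna* and *Zyx*, *Zyx* and *Tln1*, *Tagln* and *Acta2*, and *Acta2* and *Flnc*. Within single libraries, however, *Zyx* stood above *Tln1*, *Tagln* above *Acta2* and *Acta2* above *Flnc* in WT and in each subclone, and the order changed between subclones only for the pairs with *Flna*. *Actn4* stood clear of *Actn1*, *Tln1* of *Vcl*, and *Vcl* of *Tagln*.

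The subclones differed among themselves in a pattern that several of the genes shared. *Flna*, *Flnc*, *Vcl*, *Acta2* and *Tagln* were highest in #2, which makes 5 of the 9, while 39.5% of all genes tested were highest in #2. *Actn1*, *Actn4* and *Zyx* were highest in #1 and *Tln1* in #3. The gene most like *Flna* across the 4 libraries, of 15027 compared, was *Col1a1*, the main chain of type I collagen, with a root mean square difference of 0.023 in centred log2 CPM. *Col1a1* stood at 190 CPM in WT and at 304, 555 and 374 in #1, #2 and #3. The next was *Anxa8*, at 0.037. *Flnc* was most like *Hipk3* (0.029) and *Ddx11* (0.070), *Actn4* like *Mtmr4* and *Midn* (0.025 and 0.029), *Tln1* like *Map4k4* and *Ppp3cb* (0.0075 and 0.014), and *Actn1* like *Pacsin3* and *Klhl12* (0.0067 and 0.025). *Vcl* was most like *Snw1* and *Atxn3* (0.028 and 0.038), *Zyx* like *Ssr2* and *Rangrf* (0.028 and 0.036), *Tagln* like *Zfp672* and *Dgkh* (0.027 and 0.035), and *Acta2* like *Rfx2* and *Il1rl2* (0.070 and 0.079). With 4 libraries such likeness is common: 174 named genes lay within 0.1 of *Actn1*, 141 of *Tln1* and 26 of *Flna*.

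Fibroblasts, the usual feeder cells, make much filamin and type I collagen. Of the 11 fibroblast markers in the table, 8 were tested, and all of these 8 were highest in #2, against 39.5% of all genes tested. The 5 genes above were grouped by being highest in #2, so sharing this with the markers supports nothing. Their summed level was 213 CPM in WT and 344, 710 and 447 in #1, #2 and #3, mostly *Col1a1*. *Col3a1* stood at 6.39 CPM in WT and at 16.2, 80.0 and 36.9 in the subclones. *Fbln2*, at 1.68 CPM in WT and 15.3, 38.5 and 23.5 in the subclones, was the 1 marker called (higher). The defining markers *Thy1*, *Dcn* and *Lum* had 0 counts in every library. *Sparc*, a matrix protein on the primitive endoderm list, showed the same order, at 108 CPM in WT and 165, 323 and 204 in the subclones, while *Lama1*, the largest gene of that list, was highest in #3 (848 CPM in WT, then 1215, 1361 and 1779). The primitive endoderm list summed to 964 CPM in WT and to 1390, 1691 and 1991 in the subclones, nearly all of it *Lama1* and *Sparc*. Of its 7 tested genes edgeR called 0, with 4 higher and 1 lower at an unadjusted p under 0.05, and DESeq2 called 1 higher. Over all genes, 5110 of 15028 passed that unadjusted threshold in either direction. *Gata4* (1.14 CPM in WT, then 0.179, 0 and 0.167) and *Col4a1* (4.78 in WT, then 3.04, 1.92 and 2.78) stood below WT in each subclone. The part of fibroblasts or other cells in the levels of *Flna*, *Flnc*, *Vcl*, *Acta2* and *Tagln* was not tested. Without #2, the log2 fold changes of these genes were 0.88 for *Flna*, 1.39 for *Flnc*, 0.16 for *Vcl*, -1.81 for *Acta2* and -0.53 for *Tagln*.

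**Figure D3:**
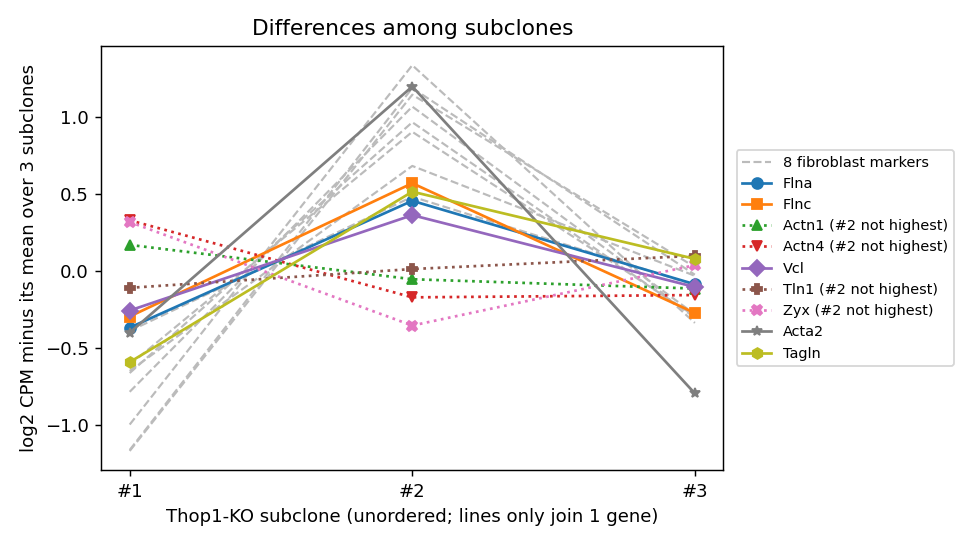
log2 CPM of each gene minus its own mean over the 3 *Thop1*-KO subclones (vertical axis) in #1, #2 and #3 (horizontal axis, unordered), for the 9 genes (solid where #2 is highest, dotted where it is not) and for the 8 tested fibroblast markers (grey dashes). The markers and *Flna*, *Flnc*, *Vcl*, *Acta2* and *Tagln* peak in #2, whereas *Actn1*, *Actn4*, *Zyx* and *Tln1* do not.

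The fold changes of all genes tested also moved with gene length. For log2 fold changes the median was -0.47 in the 2799 genes of up to 1000 bases, -0.08 for those of 1000 to 2000, 0.20 for 2000 to 4000, 0.38 for 4000 to 8000 and 0.49 for the 292 genes over 8000. *Flna* (8412 bases), *Flnc* (9098) and *Tln1* (8647) are among the longest genes, *Vcl* has 5491 bases, and *Acta2* (1391) and *Tagln* (1254) are short. With each library corrected for length, the log2 fold changes became 0.79 for *Flna*, 1.37 for *Flnc*, 0.41 for *Tln1*, 0.26 for *Actn1*, 0.93 for *Actn4* and 0.07 for *Vcl*, and -0.55 for *Zyx*, -0.81 for *Acta2* and -0.05 for *Tagln*. The correction was incomplete for long genes. The corrected median was still 0.11 for 4000 to 8000 bases, the bin of *Vcl*, and 0.17 over 8000, the bin of *Flna*, *Flnc* and *Tln1*. All 9 kept their sign, and none of the 9 was called, the call of *Actn4* being lost. At an unadjusted p under 0.05, 3 of the 9 passed, as did 4758 of the 15028 genes tested. *Actg1* (1128 bases) stayed called, at 1.44.

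**Figure D4:**
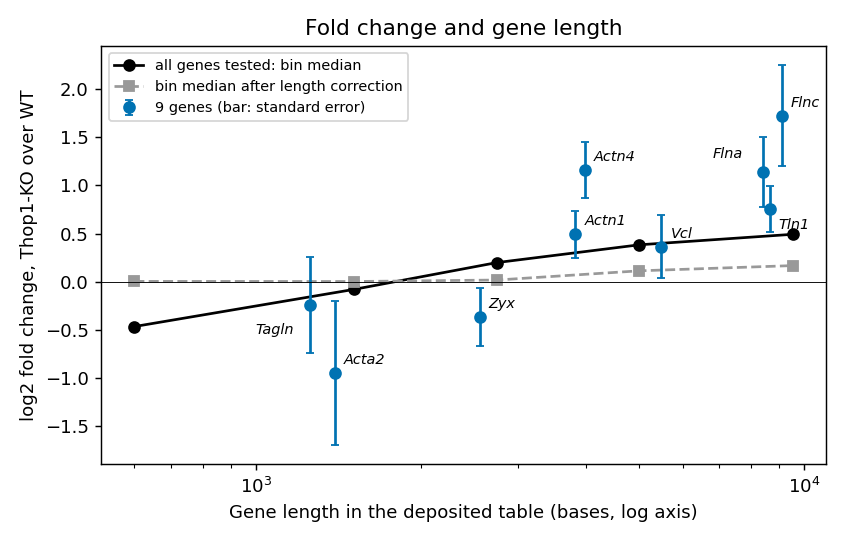
log2 fold change of *Thop1*-KO over WT (vertical axis) against gene length in bases (log horizontal axis), with the 9 genes as blue points with bars of 1 standard error and the medians of all genes tested in 5 bins of length before (black) and after (grey) the correction for length. The black medians climb from -0.47 to 0.49, while *Flna*, *Flnc*, *Actn4*, *Actn1* and *Tln1* lie above them and *Zyx* and *Acta2* below. *Vcl* and *Tagln* lie within 1 standard error of the median of their own bin. The bar of *Actn1* also reaches the black line that joins the medians.

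The wider actin cytoskeleton was followed in 6 lists of related genes, which hold 110 tested genes besides the 9. Of these, 18 were called higher (16.4%) and 5 lower (4.55%), with a median log2 fold change of 0.26. Over all genes tested these values were 8.62%, 5.17% and 0.06, so the share called lower was near that of all genes. Within single lists the counts are small, and the shares called higher ran from 8.82% for focal adhesion genes to 29.2% for bundlers and linkers in the lists of more than 10 tested genes. The actin bundlers and membrane linkers had 7 of 24 higher and 0 lower by edgeR. At an unadjusted p under 0.05, 10 were higher and 0 lower, and DESeq2 also called 10 higher and 0 lower. The 7 included *Sptbn1* (beta-spectrin, log2 fold change 2.48), *Marcksl1* (2.45), *Espn* (espin, 2.11), *Anln* (anillin, 1.92) and *Rdx* (radixin, 1.81). The genes of actin assembly and turnover were split, with a median log2 fold change of -0.18. At an unadjusted p under 0.05, 9 of the 33 were higher and 8 lower, and DESeq2 called 6 higher and 5 lower. Over all genes tested, 5110 of 15028 passed that unadjusted threshold in either direction. Of the genes to which DESeq2 gave an adjusted p, it called 14.1% higher and 7.2% lower. By edgeR's adjusted p, 5 of the 33 were higher (15.2%) and 3 lower (9.09%). The higher ones were *Wasf2*, an activator of the Arp2/3 complex (3.72), *Dstn*, which severs filaments (2.73), *Actr2*, a subunit of Arp2/3 (2.68), *Limk2* (1.72) and *Ssh1* (1.39), a kinase and a phosphatase that act on cofilin in opposite ways. The lower ones were *Tmsb4x* (thymosin beta-4, which sequesters actin monomers, -1.72), *Pfn1* (profilin-1, -1.22) and *Arpc4* (another subunit of Arp2/3, -1.02). *Actr2* and *Arpc4* thus went in opposite directions within 1 complex. After the correction for length, *Tmsb4x* stayed called (-1.19), while *Pfn1* (-0.84) and *Arpc4* (-0.89) kept their direction but not their call, as did the higher genes *Limk2* (1.49), *Ssh1* (1.17) and *Espn* (1.92). Over all 6 lists the correction gave 14 higher calls, against 18 before it, and 5 lower calls, the same number as before. The lower calls were not the same genes, since *Pfn1*, *Arpc4* and *Myl12a* lost theirs. Over all genes tested the correction gave 1114 higher and 649 lower calls, against 1295 and 777 before it.

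Among focal adhesion genes, edgeR called 3 of 34 higher (8.82%, near the 8.62% of all genes tested) and 0 lower (5.17% of all genes). Of the 31 besides the 9, 8 were higher and 0 lower at an unadjusted p under 0.05. Over all genes, 5110 of 15028 passed that threshold in either direction. DESeq2 called 6 of the 31 higher and 0 lower, against 14.1% and 7.2% over all genes. The 3 called by edgeR were *Limd1* (3.20), *Tns1* (2.96) and *Tns3* (1.09), the last 2 encoding tensins, which tie integrins to actin. *Limd1* had only 4 counts in WT, and was called in 8 of the 10 alternatives that tested it. *Tns3* lost its call after the correction for length (0.76). The contractile and transgelin family had 2 of 19 higher, *Cnn2* (calponin-2, 3.38) and *Tpm4* (tropomyosin-4, 2.39), and 1 lower, *Myl12a* (a regulatory light chain of myosin, -1.01, and -0.71 without a call after the correction for length), whose close copy *Myl12b* may share reads. *Tagln2*, the relative of *Tagln* outside muscle, had a log2 fold change of 0.28 and was not called. The other lists held genes given above: 1 of 2 alpha-actinins (*Actn4*) and 1 of 5 actins (*Actg1*) called higher, and 1 of 5 actins called lower (*Acta1*). In 59 of the 110 genes (53.6%) #2 was the highest subclone, against 39.5% of all genes tested.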

How the data were processed

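Poly(A) RNA of 1 WT and 3 *Thop1*-KO libraries was analysed. The authors deposited raw counts per gene and FPKM values. The submitters' processing notes name HISAT2 2.0.5 and featureCounts 1.5.0-p3, and adaptors were removed with the FASTX toolkit; the genome build, annotation version and strand setting are not given in the sources used here. Dividing the deposited counts by gene length and by a factor for each library returns the deposited FPKM. Groups follow the labels. The 9 genes and the lists were chosen with earlier results of these data known.

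Counts were tested with edgeR 4.0.16 in R 4.3.3 (filterByExpr with a minimum count of 10, TMM, quasi-likelihood test, Benjamini-Hochberg adjustment, threshold 0.05) over all 15028 genes that passed. The test was checked on simulated counts. Alternatives were 3 other scalings, DESeq2 1.42.0, 2 other filters, limma 3.58.1 on log2 FPKM (with 1 or 0.1 added, and with 1 added but no filter), a loess correction for gene length (span 0.3) and leaving out each subclone. No GC correction was run, since no genome was used here. The genes named are the 9, their paralogs, up to 5 called genes per direction of each list, *Thop1*, cell type markers, and the 2 genes most like each of the 9, by the root mean square difference of log2(CPM + 0.1) centred over the 4 libraries. *Sparc*, *Lama1*, *Gata4*, *Col4a1*, LOC100361457 and *Myl12b* were named after their values were seen. Some genes of the family and of the wider pathway are not reported here. Promoters come from RefSeq (GRCr8), another build than may underlie the files. Figures were made with matplotlib 3.10.9 in Python 3.11.15.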

Additional observations from a re-analysis of the deposited data

How the results depend on the processing

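Of all genes tested, 1295 were called higher and 777 lower. DESeq2 called 1984 higher, limma on log2(FPKM + 1) 664, on log2(FPKM + 0.1) 796 (and 339 lower), and on log2(FPKM + 1) without a filter 332 (and 540 lower). Leaving out 1 subclone gave 354 to 3096 higher and 103 to 2476 lower. Of the 9 genes, 1 was called higher in the main test, 3 by DESeq2, 0 in the 3 limma settings and 0 after the correction for gene length. Leaving out 1 subclone gave 0 to 4 higher and 0 to 1 lower. Of the 110 other cytoskeleton genes, 18 were called higher and 5 lower, and limma called 9, 9 and 6 higher and 1, 1 and 1 lower in the order above. Leaving out 1 subclone gave 8 to 30 higher and 2 to 15 lower. The cause of these differences was not tested. *Tagln* changed sign without #1 (0.01), and the other 8 genes kept theirs in all 13 alternatives. Calls that were higher made up 62.5% in the main test and 55.6% to 70.0% under the other scalings. By limma on log2(FPKM + 1) without a filter they made up 38.1%, so lower calls outnumbered higher ones there, and without #3 77.5%. Library size alone moved the median log2 fold change of all genes from 0.06 to 0.13. FPKM and CPM per length give 1 order of the 9 genes in each library by construction, so that comparison checks nothing. No paired analysis was possible because WT has 1 library. With 1 WT library, low genes such as *Flnc*, *Acta2* and *Tagln* rest on 54 to 106 WT counts.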
